A study of Mus musculus with 2 samples.

Results

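The genes described here are the mouse genes that carry a Ube2 symbol, most of which encode ubiquitin-conjugating (E2) enzymes. They were chosen as the protein-coding genes of the GENCODE annotation whose symbol starts with Ube2, and 37 of the 43346 genes in the deposited gene tables met this rule. A further 4 genes with such a symbol are not protein-coding and were left out of all counts. The genes lie on 16 chromosomes, 3 of them on X. The symbol takes in Ube2cbp, whose protein binds Ube2c and is not itself a conjugating enzyme, and Ube2v1 and Ube2v2, which encode E2 variants without a catalytic cysteine.

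The samples came from MEL cells, an immortalized line of mouse erythroleukemia cells that resemble red cell precursors blocked before terminal maturation. Polyadenylated RNA was sequenced single-end in 2 libraries, which the labels number as biological replicates 1 and 2 of a single group. No treatment, genotype change or induction of differentiation is given in the labels, and age and sex are not recorded, so no condition was compared with another. The labels call them biological replicates without saying whether they were separate cultures, so differences between them may be technical. The gene counts summed to 67735380 in replicate 1 and 79923143 in replicate 2. A gene with 0 counts can thus have a share of at most 4.43e-06% and 3.75e-06% of them, counting error alone considered. All 12 erythroid marker genes looked at, among them Gata1, Klf1 and Alas2, stood at 10 TPM or more in both replicates, with a summed level of 1399 and 2189.7 TPM. Of the 6 myeloid, 4 B cell, 4 T cell and 4 fibroblast markers, 0 reached 1 TPM in both replicates. Of the 5 megakaryocyte markers, 3 did, and 1 reached 10 TPM, with a summed level of 30.1 and 55.4 TPM.

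Ubiquitin is passed from an E1 activating enzyme to the catalytic cysteine of an E2 and from there, with an E3 ligase that picks the substrate, to a lysine of the target protein. Each E2 works with some E3s and not others, and several E2s carry a ubiquitin-like protein such as SUMO, NEDD8 or ISG15 in place of ubiquitin. In red cell development the E2s are known above all for clearing the proteome of the reticulocyte. Ube2o marks ribosomal proteins for breakdown there, Ube2h works with the CTLH ligase, and the gene for Ube2l6, the ISG15 conjugating enzyme, is also induced during erythroid maturation.

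The catalytic cysteine sits a short way behind a conserved histidine, and the coding sequence around it shows how the members differ. The codons for a histidine, a proline or cysteine, and an asparagine, followed after 7 or 8 codons by a cysteine, were found in the most abundant matched protein-coding transcript of 25 of the 37 genes. In 22 the second residue is proline, and in the 3 Ube2e genes it is cysteine. Ube2h and Ube2k share a spacing of 11 codons from histidine to cysteine, where the other genes with the stretch have 10. The 12 genes without the stretch include the variants Ube2v1 and Ube2v2, Ube2cbp, and several enzymes with a cysteine in another setting, such as Ube2o and Ube2z. The stretches of the erythroid-linked Ube2l6 and Ube2h, their nearest relatives by family or spacing, and the mitotic Ube2c and Ube2s are given 5′ to 3′ on the coding strand, from the histidine codon on, with the codon of the catalytic cysteine in capitals. Sequences are from the GENCODE M21 transcripts on mm10.
Ube2l6: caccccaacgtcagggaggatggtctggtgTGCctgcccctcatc
Ube2l3: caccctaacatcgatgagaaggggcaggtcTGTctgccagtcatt
Ube2h: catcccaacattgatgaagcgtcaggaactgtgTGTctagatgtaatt
Ube2k: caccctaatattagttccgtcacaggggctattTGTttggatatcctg
Ube2c: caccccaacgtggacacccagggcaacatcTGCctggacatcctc
Ube2s: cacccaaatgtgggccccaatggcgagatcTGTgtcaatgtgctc
The stretch lies at chr2:84806439-84806483 (plus strand) for Ube2l6, chr16:17160030-17160074 (minus) for Ube2l3, chr5:65581410-65581457 (plus) for Ube2k, chr2:164771947-164771991 (plus) for Ube2c and chr7:4810467-4810511 (minus) for Ube2s, each within a single coding exon. That of Ube2h is split by an intron and spans chr6:30241397-30242557 (minus). Ube2l6 and Ube2l3, which belong to the same family, differ at 14 of 45 bases, Ube2h and Ube2k at 21 of 48, and Ube2c and Ube2s at 15 of 45. In none of these pairs does the stretch match over the 45-base length of a read.

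Levels are given as TPM, a measure of transcript number that allows for gene length and is scaled to a fixed sum per library. The 37 genes held 0.359% of all TPM in replicate 1 and 0.340% in replicate 2. With 1 TPM in each replicate as the minimum, 31 of 37 were detected (83.8%), against 46.8% of the 21474 protein-coding genes. At 10 TPM there were 28 (75.7%, against 31.4%) and at 100 TPM 10 (27.0%, against 5.38%). Their median level was 57.8 TPM (67.1 and 44.3 by replicate), while the median of the 10259 protein-coding genes with a mean of at least 1 TPM was 22.1. Detected genes spanned a 77.2-fold range of mean level, and the 4 highest held 42.1% of the summed level of the 37.

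**Figure D1:**
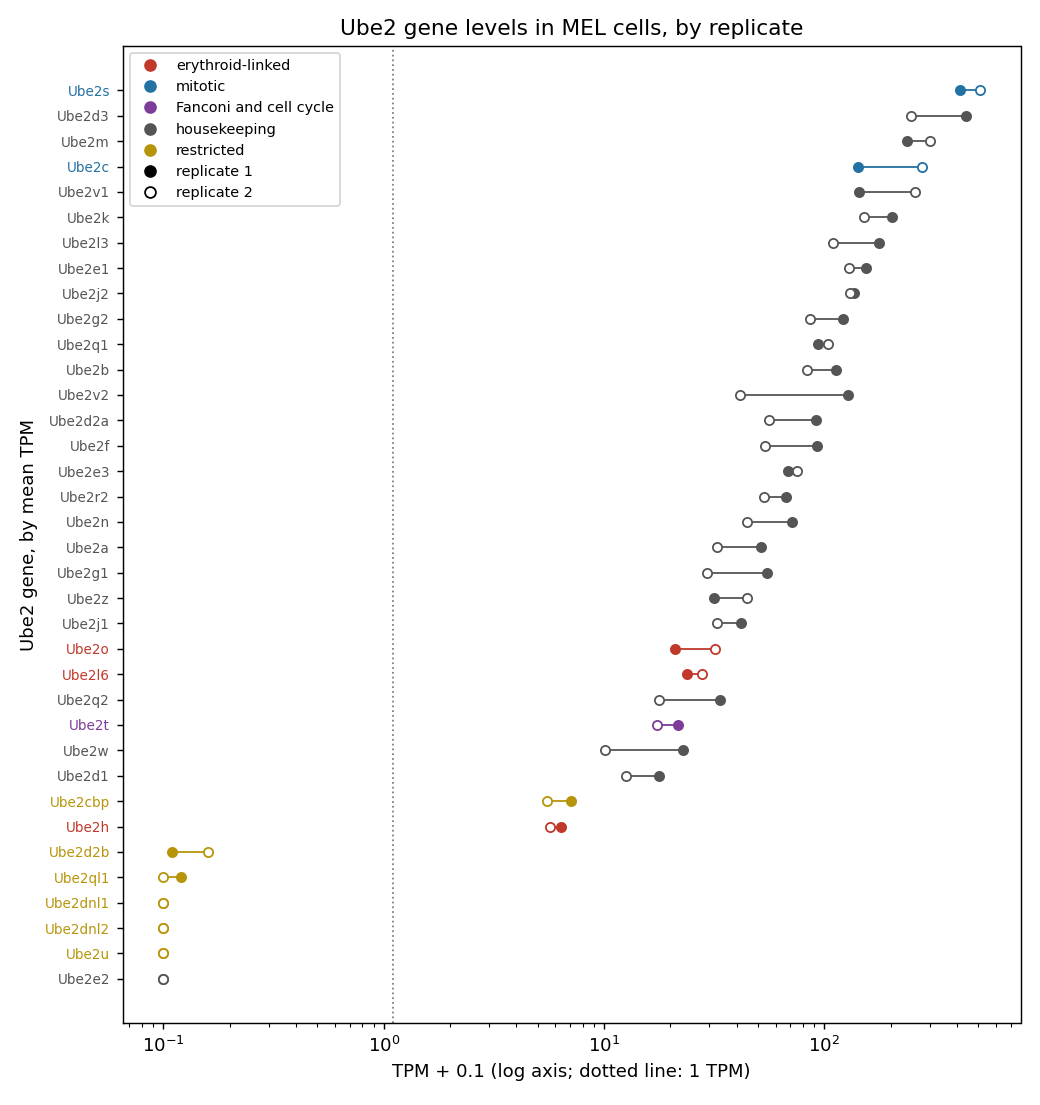
TPM + 0.1 of the Ube2 genes (1 of the 37 is not drawn) on a log axis, ordered by mean level, with replicate 1 as filled and replicate 2 as open points and the class of each gene in colour. The mitotic Ube2s and Ube2c lie at the upper end, while Ube2o, Ube2l6 and Ube2h lie at or below 31.7 TPM in both replicates.

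The 3 erythroid-linked genes were expressed at low to middling levels in these cells. Ube2o (ENSMUSG00000020802.8; mm10, chromosome 11, 116537740-116581447), which encodes a large enzyme that combines E2 and E3 activity, had 20.9 TPM in replicate 1 and 31.7 TPM in replicate 2. Ube2l6 (ENSMUSG00000027078.10; chromosome 2, 84798828-84810335) stood at 23.6 and 27.7 TPM. Ube2h (ENSMUSG00000039159.12; chromosome 6, 30211289-30304539) stood at 6.30 and 5.60 TPM, the lowest mean of the 31 detected genes. Ube2h lay below Ube2o and Ube2l6 in both replicates, by 4.28-fold and 4.25-fold, and the 2 higher genes overlapped each other. Their levels sat beside erythroid marker genes that all passed 10 TPM, and no sample of induced or mature erythroid cells was analysed here to set them against.

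The mitotic E2s were among the highest. Ube2s (ENSMUSG00000060860.7; chromosome 7, 4794546-4812590), which extends ubiquitin chains on substrates of the anaphase-promoting complex (APC/C), had the highest mean of the 37 at 413 and 506 TPM. Ube2c (ENSMUSG00000001403.9; chromosome 2, 164769898-164778822), which starts those chains, stood at 142 and 276 TPM. Ube2c was lower than Ube2s in both libraries, by 2.31-fold on average. That ratio lay inside the limit used for pairs (log2 1.31, or 2.48-fold). The limit is the single-gene difference between replicates that 95% of protein-coding genes with a mean of at least 1 TPM stay under. It is not the spread of a pair's own ratio, so a ratio inside it can still be alike in both replicates. Ube2t, which works with the Fanconi ligase Fancl at DNA crosslinks, stood at 21.6 and 17.3 TPM.

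The classes were compared by the mean of log2(TPM + 0.1) over their genes within each replicate, and no test was made. The erythroid-linked genes lay below the mitotic pair by a log2 difference of -4.04 in replicate 1 and -4.45 in replicate 2, a mean of -4.24 ± 0.29 (SD, n = 2), or 18.9-fold. Against the 25 genes grouped as housekeeping, the difference was -2.23 and -1.62, a mean of -1.93 ± 0.43, or 3.80-fold. The mitotic pair lay above the housekeeping genes by 1.81 and 2.82, a mean of 2.32 ± 0.72, or 4.98-fold. The order of the classes was the same in both replicates. Without Ube2h, the lowest of the 3, the erythroid-linked genes differed from the housekeeping genes by -1.23 and from the mitotic pair by -3.55. The housekeeping class includes Ube2e2, which had 0 counts. Without Ube2e2, the erythroid-linked genes differed from the housekeeping genes by -2.31 and the mitotic pair from them by 1.93. Leaving out Ube2h or Ube2e2 was not planned in advance.

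Of the housekeeping genes, 24 of 25 were detected and 8 passed 100 TPM, with a median of 73.9 TPM. Among the general initiators of ubiquitin transfer, Ube2d3 was the highest at 439 and 247 TPM. Ube2d2a stood at 91.7 and 56.0 and Ube2d1 at 17.7 and 12.5, so that the 3 Ube2d genes formed the same order in both replicates with no overlap. Ube2d3 exceeded Ube2d2a by 4.58-fold and Ube2d1 by 22.0-fold, with SDs of the log2 ratio of 0.09 and 0.23. Ube2e1 stood at 155 and 129.5 TPM and Ube2e3 at 68.4 and 75.3, a 1.97-fold ratio inside the limit. Ube2e1 was the higher in both replicates, by log2 ratios of 1.18 and 0.78. The third member of that family, Ube2e2, had 0 counts in both libraries. Ube2l3, which serves HECT and RBR ligases, stood at 177 and 109 TPM, and its ISG15-conjugating relative Ube2l6 was 5.42-fold lower. Ube2w, which attaches a single ubiquitin to protein N-termini, stood at 22.8 and 9.95 TPM.

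The chain-building enzymes were all detected. Ube2n, which builds Lys63-linked chains together with Ube2v1 or Ube2v2, stood at 71.1 and 44.5 TPM. Ube2v1 stood at 143 and 259 TPM, and Ube2v2 at 127 and 41.5. The variants were thus close in replicate 1 and far apart in replicate 2, with log2 ratios of 0.17 and 2.64. Their mean ratio of 2.64-fold passes the limit only because of replicate 2. Ube2k, which builds Lys48-linked chains, stood at 202 and 152 TPM. Ube2r2, a partner of cullin ligases, stood at 67.1 and 52.8 TPM and lay 3.56-fold below its relative Cdc34, at 155.5 and 289.8 TPM.

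Of the enzymes that act in degradation of proteins from the endoplasmic reticulum, Ube2j2 stood at 136 and 130.1 TPM and Ube2j1 at 41.9 and 32.6, a 3.59-fold ratio seen in both replicates. Ube2g2 stood at 121 and 85.8 TPM and Ube2g1 at 54.7 and 29.1, a ratio of 2.55-fold. The Rad6 homologs that act on histones and at stalled replication forks stood at 51.4 and 32.4 TPM for Ube2a and 113 and 83.1 for Ube2b. Ube2b was 2.37-fold higher, inside the limit. It was the higher in both replicates, with log2 ratios of Ube2a over Ube2b of -1.13 and -1.36.

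Among the enzymes for ubiquitin-like proteins, Ube2m, which hands NEDD8 to most cullins, stood at 237 and 301 TPM, and Ube2f, which hands it to Cul5, at 92.7 and 53.7, a ratio of 3.78-fold. Ube2z, which is charged by Uba6 and can carry ubiquitin or FAT10, stood at 31.5 and 44.3 TPM. Of the atypical family with long N-terminal extensions, Ube2q1 stood at 92.9 and 103.3 TPM and Ube2q2 at 33.6 and 17.7, a 4.01-fold ratio.

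The 6 genes grouped as restricted had a median of 0.005 TPM. Ube2cbp was the only one detected, at 7.0 and 5.43 TPM. Ube2d2b was at 0.01 and 0.06 TPM and Ube2ql1 at 0.02 and 0. Ube2u, Ube2dnl1 and Ube2dnl2 had 0 counts in both libraries, as did Ube2e2.

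In all, 26 pairs of related or cooperating genes were compared, and 19 had the same sign in both replicates with a mean beyond the 2.48-fold limit. None changed sign between replicates. The pair of Ube2e1 with the uncounted Ube2e2 is among the 19, with a ratio whose size is set by the pseudocount. How often any pair of expressed genes passes this limit was not computed. Detected Ube2 genes alone spanned a 77.2-fold range, so the count of 19 is given without a share to set it against. Without replicate 2, 4 of the 19 fell inside the limit: Ube2v1 over Ube2v2 at a log2 ratio of 0.17, Ube2n over Ube2v1 at -1.01, Ube2g1 over Ube2g2 at -1.15 and Ube2r2 over Cdc34 at -1.21. Ube2c over Ube2s (-1.54) and Ube2o over Birc6 (-1.92) passed it without replicate 2, and Ube2a over Ube2b (-1.36) without replicate 1. Birc6 encodes another large enzyme that combines E2 and E3 activity, and it stood at 79.2 and 51.03 TPM.

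**Figure D2:**
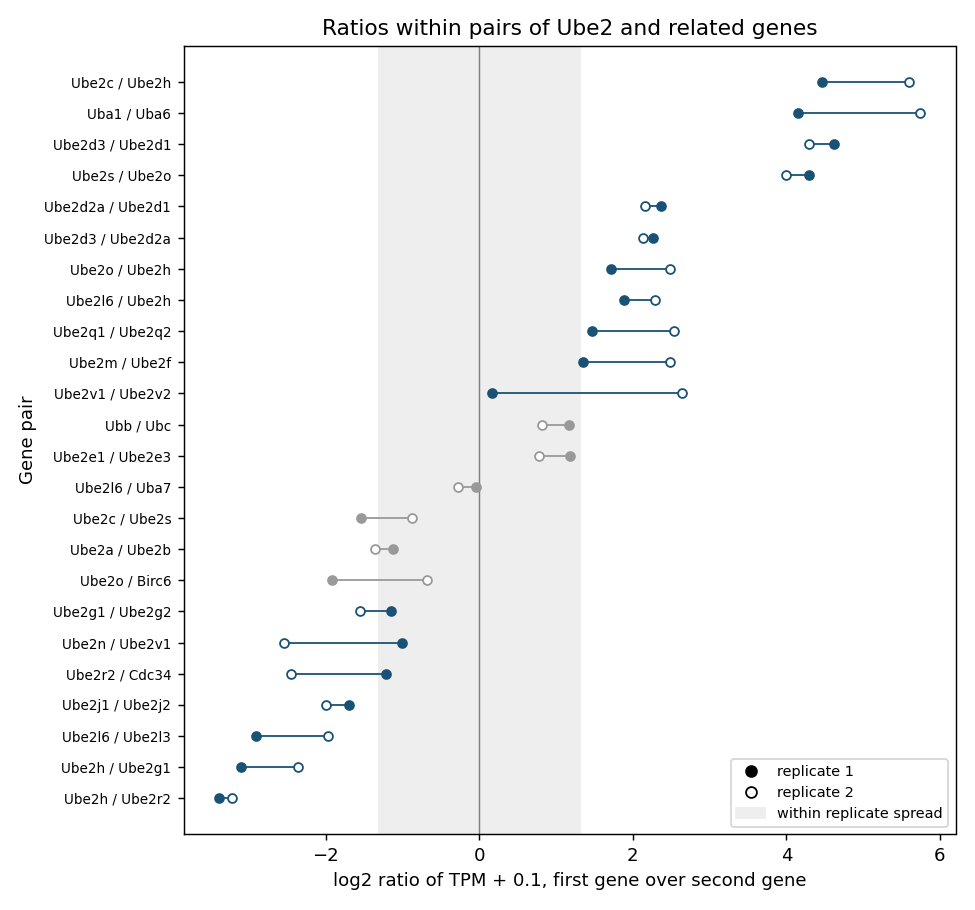
log2 ratio of TPM + 0.1 within pairs of Ube2 or related genes, with replicate 1 filled and replicate 2 open. Shading marks the limit from single-gene differences between replicates (log2 1.31 to either side). The pair with Ube2e2, which has no counts, and 1 other pair are not drawn, and Ube2v1 over Ube2v2 shows the widest distance between replicates, from 0.17 to 2.64.

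A gene's TPM does not all stand for messages that encode the enzyme. Among the 28 genes with a mean of at least 10 TPM and matched transcript types, 7 had under 80% of their TPM on protein-coding transcripts in a replicate (25.0%, against 32.8% of 7246 protein-coding genes at that level). By shares of expected counts in place of TPM there were 4. The 7 by TPM were Ube2g1, Ube2g2, Ube2l6, Ube2m, Ube2o, Ube2r2 and Ube2w. Ube2m had the lowest share, 29.2% and 36.5%. Its retained-intron transcripts Ube2m-205 (92.7 and 123 TPM) and Ube2m-206 (69.8 and 62.8) were both above any of its coding transcripts. On coding transcripts alone the level of Ube2m was 89.7 TPM, and its ratio to Ube2f fell to a log2 of 0.34, inside the limit.

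Ube2g2 changed its main transcript between the replicates. Ube2g2-205, annotated as a target of nonsense-mediated decay, stood at 78.8 and 23.2 TPM, and the coding Ube2g2-204 at 38.9 and 61.7. The coding share was 34.9% in replicate 1 and 72.8% in replicate 2. On coding transcripts alone Ube2g1 and Ube2g2 differed by a log2 of -0.64, inside the limit. Ube2r2 had 49.8% and 61.4% on coding transcripts, beside a retained-intron transcript at 32.8 and 19.8 TPM.

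Both better expressed erythroid-linked genes were in this group. The coding Ube2l6-201 was steady at 16.7 and 17.4 TPM and held 70.5% and 62.7% of the gene's TPM. The rest lay on different transcripts in the 2 libraries: the retained-intron Ube2l6-204 stood at 6.35 and 0.23 TPM and the processed transcript Ube2l6-203 at 0.61 and 9.82. Ube2o-201, the main coding transcript of Ube2o, stood at 16.6 and 20.8 TPM, and the processed transcript Ube2o-202 at 4.30 and 8.12. By contrast, the coding transcripts Ube2h-202 and Ube2s-201 held all TPM of their genes, and Ube2c-202 held 99.8% in both replicates. Of the 24 genes at this level with several transcripts, 20 had the same leading transcript in both replicates. The others were Ube2g2, Ube2b, Ube2j2 and Ube2q2, and in the last 3 the leading transcripts of both replicates were protein-coding. The share of all protein-coding genes at this level with the same leading transcript was not computed. With single-end reads of 45 bases, the length implied by the deposited effective lengths, the division of reads among overlapping transcripts is an estimate.

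**Figure D3:**
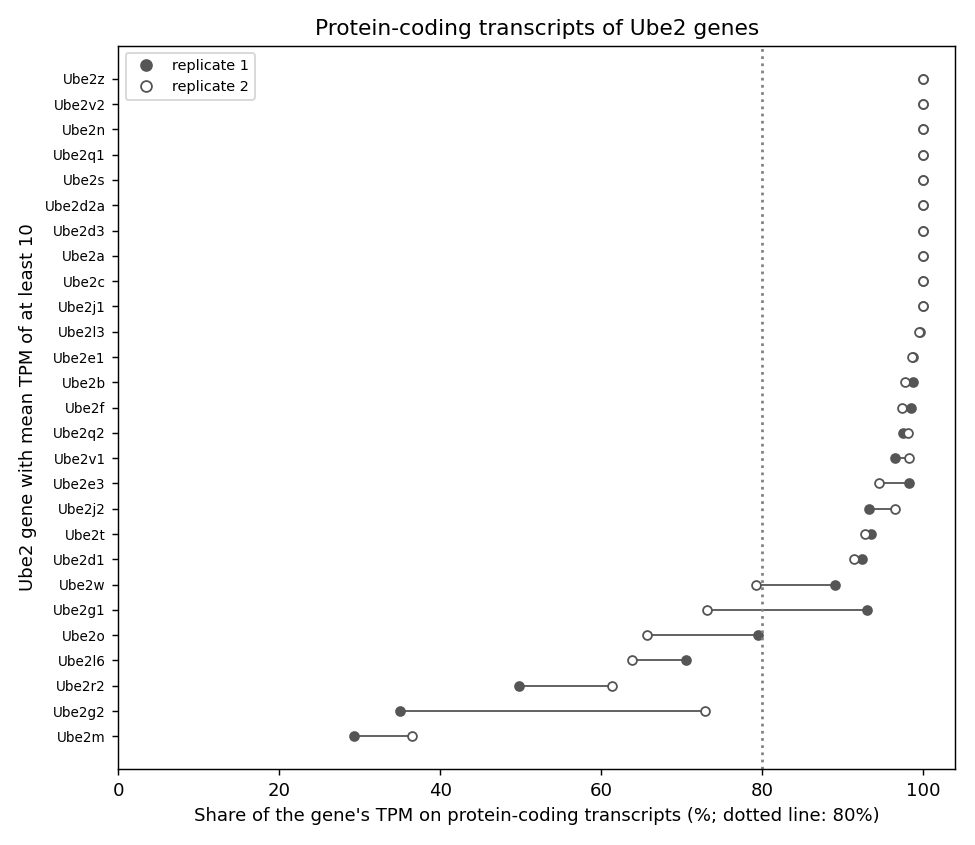
Share of TPM on protein-coding transcripts for the Ube2 genes with a mean of at least 10 TPM and matched types (1 of the 28 is not drawn), in replicate 1 (filled) and replicate 2 (open). Ube2m, Ube2g2 and Ube2r2 lie lowest, and Ube2g2 moved from 34.9% to 72.8%.

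Between the replicates, each gene's rounded expected counts entered an exact binomial test, two-sided and conditional on their sum, with edgeR's TMM library sizes. The 15251 genes whose counts summed to at least 20 were tested. The test sets 1 library against 1 library and covers counting error only. At an adjusted p under 0.05 and at least 2-fold, 3 of 31 tested Ube2 genes differed (9.68%), against 19.7% of all tested genes. All 3 were higher in replicate 1, where the share over all genes was 12.1%, and 0 were higher in replicate 2, where it was 7.63%. By edgeR's exact test with an estimated dispersion, 0 of the 31 differed, with 0 at an unadjusted p under 0.05, and 150 genes in all. That dispersion was estimated from the same 2 libraries taken as 1 group. The replicate difference thus counts as noise in this test, which cannot decide whether a gene differs. In the binomial test, Ube2v2 differed by a log2 ratio of -1.45 (replicate 2 over replicate 1), Ube2w by -1.35 and Ube2g1 by -1.11. The median absolute log2 ratio was 0.51 over the tested Ube2 genes and 0.59 over all tested genes.

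GC content moved with this ratio. By the scaled counts, all 18 Ube2 genes with at most 50% GC were higher in replicate 1. Of the 13 with more, 10 were higher in replicate 2. The matching counts over all tested genes are not given here, so these cannot be called particular to the Ube2 genes. By TPM, Ube2e3 (68.4 and 75.3) and Ube2g2 (121 and 85.8) went the other way than by counts. Across the 31 genes, which share both libraries and are not independent replicates, Pearson's r was 0.85, and across all tested genes it was 0.57. With the GC trend over all genes removed, 0 of 31 Ube2 genes differed, beside 7.73% of the 15102 genes with known GC content, and the median absolute log2 ratio over the Ube2 genes was 0.29. Ube2v2, the gene with the lowest GC content of the 31 (37.5%), then had a log2 ratio of -0.07. Ube2c moved from 0.96 to 0.48 and Ube2v1 from 0.94 to 0.52. The widest ratio of the 31 after removal was that of Ube2cbp, at -0.57.

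**Figure D4:**
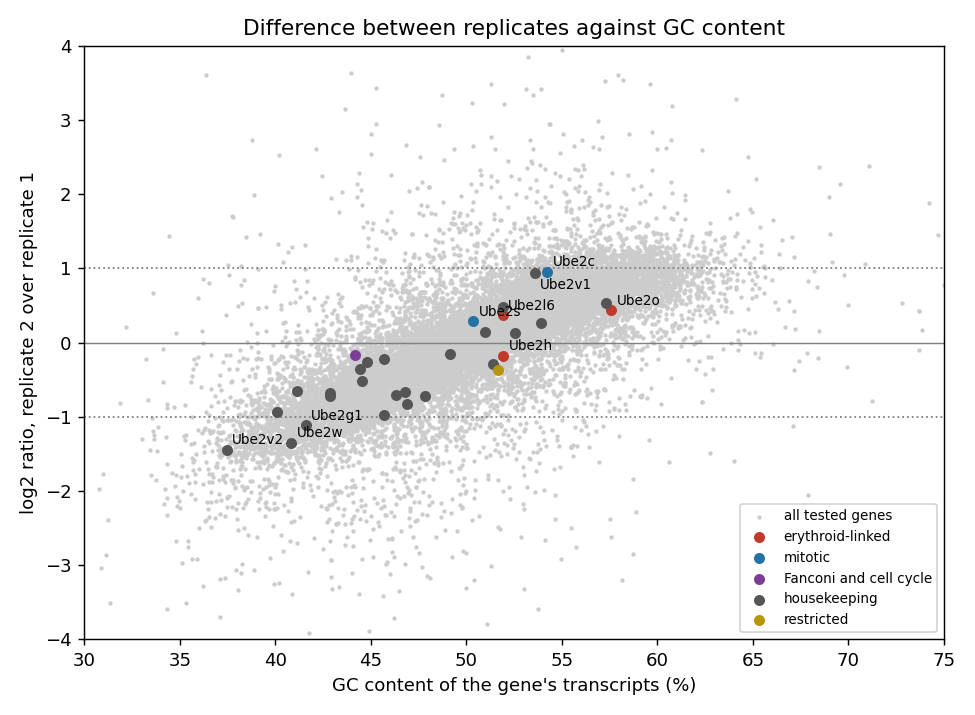
log2 ratio of replicate 2 over replicate 1 against the GC content of each gene's transcripts, with all tested genes in grey (175 lie outside the axes) and the 31 tested Ube2 genes coloured by class. The dotted lines mark 2-fold, and the Ube2 genes run from Ube2v2 at the lower left to Ube2c and Ube2v1 at the upper right.

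Some members share sequence with other genes, which bears on how reads were assigned. For Ube2v1, 58.4% of the 45-base stretches of its transcripts also occur in another gene, nearly all in Gm20431, a protein-coding readthrough model that covers 61.5% of the exonic bases of Ube2v1 on the same strand and stood at 5.89 and 3.15 TPM. Shared stretches made up 17.1% for Ube2q2, 10.7% for Ube2j2, 9.10% for Ube2h and 7.06% for Ube2l3. The pseudogene that shares most with Ube2h, Gm2058, stood at 12.9 and 6.03 TPM, above Ube2h itself. Gm10705, which shares most with Ube2l3, stood at 393 and 147 TPM, again above its parent. Gm9762, which shares most with Ube2d2a, stood at 53.0 and 59.6 TPM beside 91.7 and 56.0 for Ube2d2a, and Gm6565, which shares most with Ube2v2, at 84.9 and 33.0 beside 127 and 41.5. The values of Ube2v1, Ube2h, Ube2l3, Ube2d2a, Ube2v2 and these pseudogenes therefore depend on how shared reads were divided. They, and the ratios that use them, are uncertain in that respect. The deposited posterior SD of a count, over the square root of that count, was 1.32 and 0.22 for Ube2h. It was 1.03 and 0.65 for Ube2v1 and at most 0.46 for Ube2l3, Ube2d2a and Ube2v2. That SD covers only uncertainty within the deposited quantification. Ube2o shared no such stretch.

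The processed pseudogene Ube2nl also shares sequence with a Ube2 gene. Its listed levels were 36.7 TPM in replicate 1 and 0.24 TPM in replicate 2, while its parent Ube2n stood at 71.1 and 44.5. Whether read assignment lies behind the difference in Ube2nl was not tested. Over 456 aligned bases the coding sequences differ at 14 (96.9% identical), with 0 differences in the catalytic stretch, and 132 of 412 stretches of read length are identical. The 45-base stretch in which they differ most, at 5 positions (in capitals), lies at chr10:95541265-95541309 (plus strand) in Ube2n and chr7:61549567-61549611 (minus) in Ube2nl on mm10.
Ube2n: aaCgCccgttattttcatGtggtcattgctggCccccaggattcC
Ube2nl: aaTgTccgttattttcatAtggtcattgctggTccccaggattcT

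No source used here gives the use of strand in counting, so reads where exons of genes on opposite strands overlap cannot be told apart. Such overlap covered 28.6% of the exonic bases of Ube2l3 (with Ydjc, at 34.7 and 49.4 TPM) and 16.1% of those of Ube2e1 (with Nkiras1, at 10.4 and 5.24). It covered 3.56% of those of Ube2s, with the abundant ribosomal protein gene Rpl28 at 734 and 1119 TPM. For Ube2c it covered 22.8%, with Tnnc2 at 0 and 0.07 TPM.

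The genes that work with these enzymes were present for most pathways. Of the 10 E1 genes, 10 were detected. The ubiquitin E1 Uba1 stood at 372 and 400.04 TPM and the other ubiquitin E1, Uba6, at 20.8 and 7.36, 30.9-fold lower. Of the modifiers, 12 of 12 were detected, among them the ubiquitin gene Ubb at 921 and 1418 TPM, and Isg15 was the lowest at 3.38 and 3.67. All 11 CTLH subunits, the ligase of Ube2h, were detected, with a median of 25.4 TPM. Maea at 127 and 171 TPM and Mkln1 at 182 and 113 were the highest, and Ypel5 at 10.8 and 6.67 the lowest. Ube2h lay below each of the 11 by mean level.

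Of the ISG15 pathway, 6 of 8 genes were detected, with a median of 6.09 TPM. The ISG15-activating enzyme gene Uba7 stood at 24.4 and 33.6 TPM, close to Ube2l6. Of its 15 transcripts, 1 is protein-coding, and that one was listed at 0 TPM in both replicates. Quantification used GENCODE M4 while the transcript types are those of M21, and whether this bears on the value was not tested. The highest were the retained-intron Uba7-212 at 5.63 and 9.73 TPM and Uba7-214, annotated for nonsense-mediated decay, at 6.51 and 8.53. This look at Uba7 transcripts was chosen after its values were seen. Trim25 stood at 26.3 and 32.9 TPM, while the ISG15 protease gene Usp18 was at 0.50 and 0.55 and the interferon-induced Ifit1 at 0.43 and 0.23.

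All 19 genes of the APC/C list, which holds subunits and also regulators such as Cdc20, Fbxo5 and Mad2l1, were detected, with a median of 64.2 TPM. The activator Cdc20 stood at 94.9 and 187 TPM, and Anapc10 was the lowest at 10.3 and 5.65. All 15 NEDD8 and cullin genes were detected (median 53.8 TPM), led by Nedd8 at 479 and 357, and 8 of them differed between the replicates, all higher in replicate 1, against 12.1% of all tested genes in that direction. Of the other lists, 3 of 19 APC/C-list, 3 of 13 SUMO and 3 of 10 E1 genes differed in either direction. So did 2 of 12 modifier, 2 of 11 chromatin and repair and 1 of 9 further E2-like genes. In the CTLH, ISG15 and endoplasmic reticulum lists 0 differed. The share over all tested genes, in either direction, was 19.7%. With the GC trend removed, 0 genes of the 10 lists differed, beside 7.73% of the 15102 genes with known GC content. All 13 SUMO genes passed 10 TPM (median 97.8), led by Sumo2 at 804 and 421. The 11 chromatin and repair ligases had a median of 20.7 TPM, with Rnf20, a partner of Ube2a and Ube2b, highest at 55.9 and 32.6. Fancl, the ligase for Ube2t, stood at 25.2 and 16.2 TPM. The 9 genes of endoplasmic reticulum degradation had a median of 51.4 TPM, with Vcp highest at 388 and 318.

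**Figure D5:**
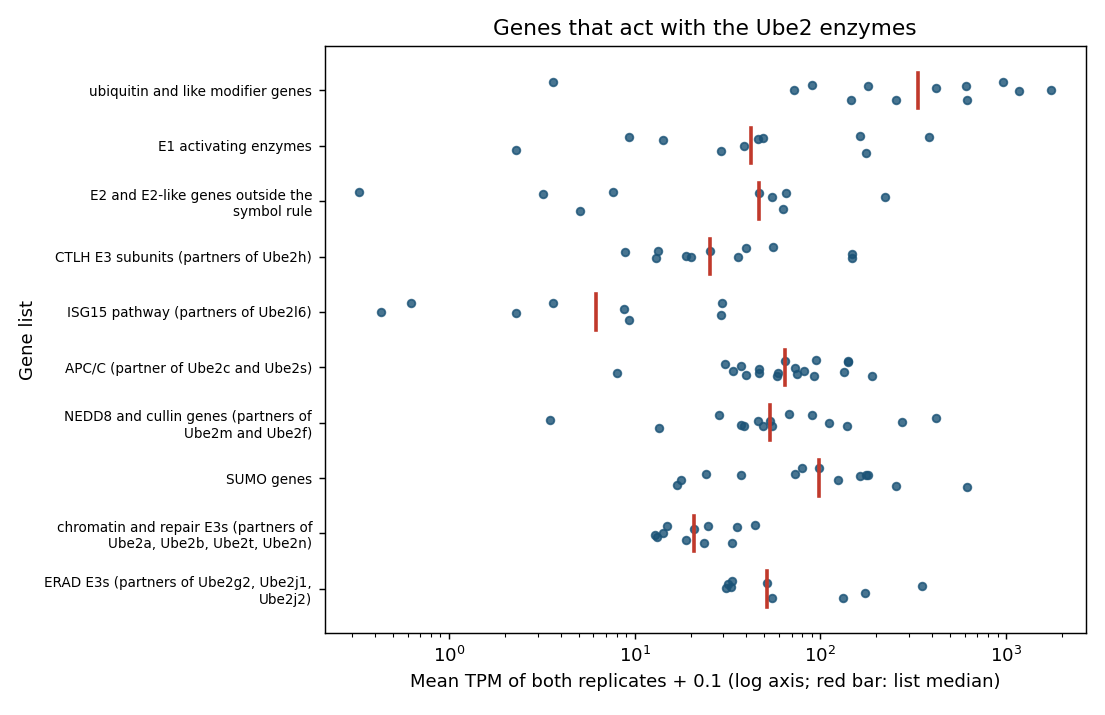
Mean TPM of both replicates + 0.1 for each gene of the 10 partner lists on a log axis, with the median of each list as a red bar. The modifiers and SUMO genes lie highest and the ISG15 pathway lowest, at a median of 6.09 TPM.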

How the data were processed

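Alignment was to mm10 and quantification used GENCODE M4, per the file headers and each sample's accompanying text. The aligner, quantifier and strand setting were not given in the sources used here. The deposited expected counts estimate how many reads came from each gene or transcript. The deposited TPM and FPKM values are scaled for effective length and depth by the authors, the deposited percent columns give each transcript's share of its gene, and the deposited score columns give the uncertainty of read assignment. GENCODE M21 gave symbols, types and positions, matched by identifier without version. Transcripts of Ube2k could not be matched well enough to give a coding share.

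The members, classes, lists and pairs were chosen with earlier results of these data known. The members are named, except that values of some single genes are not reported here; of each partner list, the rule allows the 4 highest and 2 lowest by mean TPM, not all of which are given, and Fancl was named outside it after its values were seen. Expected counts were rounded and compared by the exact conditional binomial test with Benjamini-Hochberg adjustment (edgeR 4.0.16, R 4.3.3; scipy 1.17.1), tested on simulated data. For the GC trend, a lowess curve (fraction 0.3, statsmodels 0.14.6) was fitted to the log2 ratios. Alternatives were other count and TPM minimums, pseudocounts, FPKM, posterior mean TPM, edgeR's exact test, DESeq2 1.42.0 size factors, unscaled totals, protein-coding genes or transcripts alone, transcript shares from counts, and leaving out a replicate. Protein sequences were not used here.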

Additional observations from a re-analysis of the deposited data

How the results depend on the processing

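Of the alternatives run on the summary values with both replicates kept, 33 stayed within the spread of replicates or within 1.5 times the main count and 7 moved. Leaving out a replicate is not counted as stability for levels and class differences, since with n = 2 each single value lies within 1 SD of the mean by construction. The 3 Ube2 genes that differed between the replicates fell to 0 with the GC trend removed and to 0 with edgeR's exact test, which uses a dispersion estimated from the same 2 libraries (150 of 15251 genes in all, and 0 Ube2 genes at an unadjusted p under 0.05). In FPKM the median level was 40.5. On protein-coding transcripts only, with untyped transcripts kept, the erythroid-linked genes differed from the mitotic pair by a log2 of -4.59. Without Ube2h, an alternative chosen after seeing the data, the difference was -3.55 from the mitotic pair and -1.23 from the housekeeping genes. By shares of expected counts in place of TPM, 4 genes in place of 7 had under 80% on protein-coding transcripts. Single gene levels moved in 9 of the alternatives run on them with both replicates and stayed in 65. Of the 9, 4 were posterior means of genes with 0 counts, whose SD is 0, so that any value above 0 is called moved. The other 5 were on protein-coding transcripts only, for Ube2m, Ube2j2, Ube2g2, Ube2r2 and Ube2l6. With both replicates, pairs stayed on their side of the limit in 97 cases, passed it in 4, lost it in 2 and were reversed in 1. The limit was computed anew for each setting, and with a pseudocount of 1 it was 1.21, which let Ube2o over Birc6 and Ube2a over Ube2b pass at -1.27 and -1.22. The reversed pair was Ube2l6 over Uba7 on protein-coding transcripts, at 7.43, a size set by the pseudocount since the coding transcript of Uba7 is listed at 0. Leaving out replicate 2 ended 4 pair calls and made 2, and leaving out replicate 1 made 1. No paired analysis was possible because there is only 1 group. With 2 libraries of 1 line, the SDs are themselves imprecise.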
